A study of Xenopus laevis with 16 samples.

Results

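A group of 19 Xenopus laevis gene models was described that was higher in Nodal5 explants than in control explants during the first hours of culture, was close to the control level at 24 h, and was close to control in both GATA4 treatments at the early hours. The members were taken from 30841 gene models with a total of at least 50 counts, out of 54142 in the table. Levels were expressed as log2(CPM + 1), in which CPM is the count scaled to library depth with TMM factors and 1 is the pseudocount, and each difference was a level minus that of the control library of the same hour. Members had a Nodal5 difference of at least 0.8 at 2.5, 5 and 7.5 h and of less than 0.5 at 24 h, with both GATA4 differences between -0.5 and 0.5 at the 3 early hours. The members were thus chosen by the measured Nodal5 differences at all hours and the early GATA4 differences. These differences are given below as a description without a test. Changes of level between hours were tested in the GATA4 libraries, of which the rule used those of the early hours.

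The study used animal caps, the pluripotent ectoderm of the blastula, which forms epidermis when left untreated, to compare 2 cardiogenic triggers. Nodal5 explants came from embryos injected with nodal5 mRNA. GATA4-GR explants came from embryos injected with mRNA for GATA4 fused to a glucocorticoid receptor domain, which was activated with dexamethasone. GATA4-GR+Dkk-1 explants also received the Wnt antagonist Dkk-1, and control explants were uninjected. After excision the explants of the 4 treatments were cultured for 2.5 h, 5 h, 7.5 h or 24 h, and 1 pool of explants per treatment and hour gave 16 libraries. The control explants carried no injected mRNA of any kind. Nodal5 explants held the injected nodal5 mRNA itself, and the gene model under which it would be counted is not known here.

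Nodal proteins are ligands of the TGF-beta family that act through activin receptors and an EGF-CFC co-receptor. The receptors phosphorylate Smad proteins, which enter the nucleus and switch on target genes together with FoxH and other DNA-binding partners. In frog embryos this pathway induces mesoderm and endoderm, and many of its gastrula targets, among them ligands and feedback inhibitors of the pathway, are expressed for a limited time. GATA4 is a zinc finger transcription factor of heart and endoderm.

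The members are known only by gene model identifiers, because 0 of 54142 identifiers matched the gene name table used here. Their functions, their sequences and the markers of the explant cell types were therefore not examined, and members are called by their rank in the mean Nodal5 difference over the 3 early hours. Total counts ranged from 11339829 to 23310320 per library. TMM factors lay between 1.016 and 1.1 in the 12 libraries taken before 24 h. At 24 h they were 0.815 in Nodal5, 0.866 in GATA4-GR, 0.914 in GATA4-GR+Dkk-1 and 0.710 in control, so that the control library at 24 h stood apart. With that library replaced by the mean of both GATA4 libraries at 24 h, the rule gave 28 models, of which 18 were among the 19 members. The 5 h libraries of all treatments are labelled as sequenced again, so that this batch cannot be told apart from the hour but is shared by the treatments. In bulk RNA, fewer expressing cells and less RNA per cell cannot be told apart.

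Most members were carried by few reads. Of the 19 members, 16 had under 200 Nodal5 counts over the 3 early hours, and 16 stayed under 10 CPM in every Nodal5 library. Early counts ranged from 52 to 5257 per member in Nodal5 explants, with a median of 136. That median was 342 for the 49 models that met the same early criteria and still had a Nodal5 difference of at least 0.8 at 24 h, called sustained models here. Over the early hours, the summed control counts rounded to 0 in 4 members and to at most 2 in 9. As the rule requires, the Nodal5 library was the highest of the 4 libraries at every early hour in all 19 members. Nodal5 differences of at least 0.8 at all 3 early hours, as the rule asked, occurred in 1% of all models (309 of 30841).

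**Figure D1:**
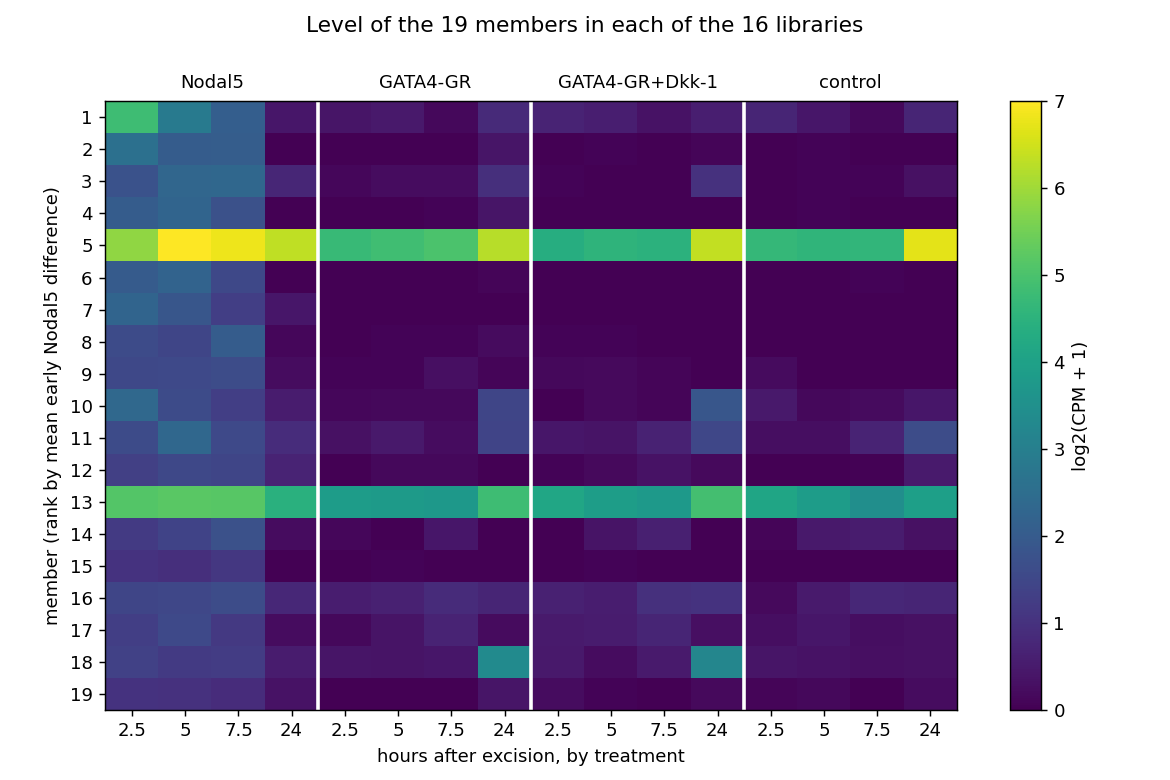
Level of each member in each library as log2(CPM + 1), with members in rows by rank and hours in columns within Nodal5, GATA4-GR, GATA4-GR+Dkk-1 and control. The first 3 Nodal5 columns are the brightest part of most rows, the members of rank 5 and 13 are visible in every library, and rank 18 is bright in both GATA4 libraries at 24 h.

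The member with the largest early difference, Xelaev16019338m.g (rank 1), had its highest level at the first hour sampled. It gave 474, 148, 38 and 4 counts in Nodal5 explants at 2.5 h, 5 h, 7.5 h and 24 h. At the same hours it gave 10, 9, 2 and 8 counts in control explants. GATA4-GR explants had 4, 7, 2 and 10 counts and GATA4-GR+Dkk-1 explants had 11, 12, 4 and 8. Thus Nodal5 stood above the other 3 treatments at all early hours, as the rule requires, and had the fewest counts at 24 h. The Nodal5 level was 3.29 CPM at 7.5 h, against 27.4 CPM at 2.5 h, a ratio of 0.12 (95% exact counting interval 0.0839 to 0.167). Summed over the early hours, the ratio of Nodal5 to control was 36.0 (23.3 to 58.5). At 24 h it was 0.532, with an interval of 0.117 to 1.99 that includes 1. These intervals cover counting error only and not the variation between explant batches, which was not measured.

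The second member, Xelaev16020571m.g (rank 2), was all but confined to Nodal5 explants. Its counts there were 87, 75, 37 and 0 at the 4 hours. Control explants had 0, 1, 0 and 0 counts, GATA4-GR explants 0, 0, 0 and 4, and GATA4-GR+Dkk-1 explants 0, 1, 0 and 1. The early ratio of Nodal5 to control was 228, but with 1 control count its interval ran from 40.4 to 9044. At 24 h the model was at 0 in Nodal5 and in control, which allows up to 3 counts, or 0.262 CPM in Nodal5 and 0.247 CPM in control. These first 2 members were chosen for mention after their values were seen, as the pair whose Nodal5 level fell most between 2.5 and 24 h.

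The 2 members with at least 10 CPM in all 3 early Nodal5 libraries were read more deeply than the rest, with at least 310 counts (rank 5) and 166 counts (rank 13) in each of the 16 libraries. In both members all 16 values were not whole numbers, the mark of reads that RSEM divides between similar models. Their counting intervals do not cover the error of that division. Xelaev16044327m.g (rank 5) had 56.0, 125, 112 and 79.9 CPM in Nodal5 explants at the 4 hours. Its control levels were 24.5, 22.9, 23.6 and 103.7 CPM. GATA4-GR explants had 25.2, 27.9, 31.2 and 75.1 CPM. GATA4-GR+Dkk-1 explants had 19.7, 22.4, 21.4 and 80.4 CPM. The Nodal5 difference was 1.16, 2.40 and 2.21 over the early hours and -0.37 at 24 h on the log2(CPM + 1) scale. At 24 h the levels of all 4 treatments lay between 75.1 and 103.7 CPM, with control the highest. The Nodal5 ratio of 24 h to 7.5 h was 0.710 (0.652 to 0.773), and the control ratio was 4.40 (3.95 to 4.90), so that the level of the control moved more than that of Nodal5 as the difference was lost.

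Xelaev16061518m.g (rank 13) had a nearly constant early Nodal5 level of 33.9, 35.7 and 35.4 CPM, and 20.8 CPM at 24 h. Control explants had 16.2, 13.7, 10.1 and 14.5 CPM at the 4 hours. GATA4-GR explants had 13.5, 13.0, 12.2 and 27.6 CPM, and GATA4-GR+Dkk-1 explants had 16.8, 13.8, 12.8 and 28.9 CPM. The early ratio of Nodal5 to control was 2.67 (2.45 to 2.90), and at 24 h it was 1.43 (1.17 to 1.75). This was the only member whose interval at 24 h lay above 1, and its 24 h difference of 0.49 was the member value closest to the limit. The levels at 24 h were higher in both GATA4 treatments than in Nodal5 explants, the reverse of the early hours.

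The remaining members were read as counts. The 4 members whose early control counts rounded to 0 gave 147 (rank 7), 113 (rank 8), 90 (rank 12) and 54 (rank 15) counts in Nodal5 explants over the early hours. At 24 h, 16 of the 19 members had under 10 counts in both Nodal5 and control explants, and 4 of them had none in either. The 24 h ratio had an interval that included 1 in 12 members, below 1 in 2 (ranks 5 and 11) and above 1 in 1 (rank 13), and could not be formed in the 4 without counts. The rule used these values, and the intervals only describe their counting error.

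Identifier numbers showed that some members lie next to each other in the list of models. Ranks 4, 6 and 2 have 3 consecutive numbers, the only neighbours among the 19. They open a run of 7 consecutive identifiers in which Nodal5 was the highest of the 4 treatments at every early hour. The early criteria require this of 5 of the 7. The run was picked out after its values were seen, and the files give no positions, so whether the run is a cluster in the genome is not known here. The member at place 1 of the run (rank 4) gave 53, 91, 27 and 0 counts in Nodal5 explants at the 4 hours, and the member at place 2 (rank 6) gave 52, 88, 21 and 0. Control explants gave 1 count over the early hours in each. Place 3 is rank 2, described above.

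The models at places 4 and 5 were weaker, with 36 and 7 early Nodal5 counts against 5 and 1 in control, and with totals of 49 and 9 counts they stayed under the minimum of 50. At place 5 Nodal5 had only 1.18 counts at 5 h and 1.12 at 7.5 h, against 1 and 0 in control. Places 6 and 7 were the strongest of the run. The model at place 6 gave 651, 256, 91 and 10 counts in Nodal5 explants, against 0, 2, 1 and 0 in control explants. The model at place 7 gave 614, 210, 73 and 52 counts, against 1, 5, 1 and 0. Both are sustained models under the rule, yet their Nodal5 counts also fell at each successive hour, and their 24 h counts exceeded a control library without any. The members at places 1 and 2 had their highest Nodal5 CPM at 5 h and the member at place 3 at 2.5 h, and all 3 ended at 0. Each of these 3 members had 3 values that were not whole numbers, the mark of reads that RSEM divides between similar models, so their counts may not be independent of each other and may include reads of a near-identical copy.

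**Figure D2:**
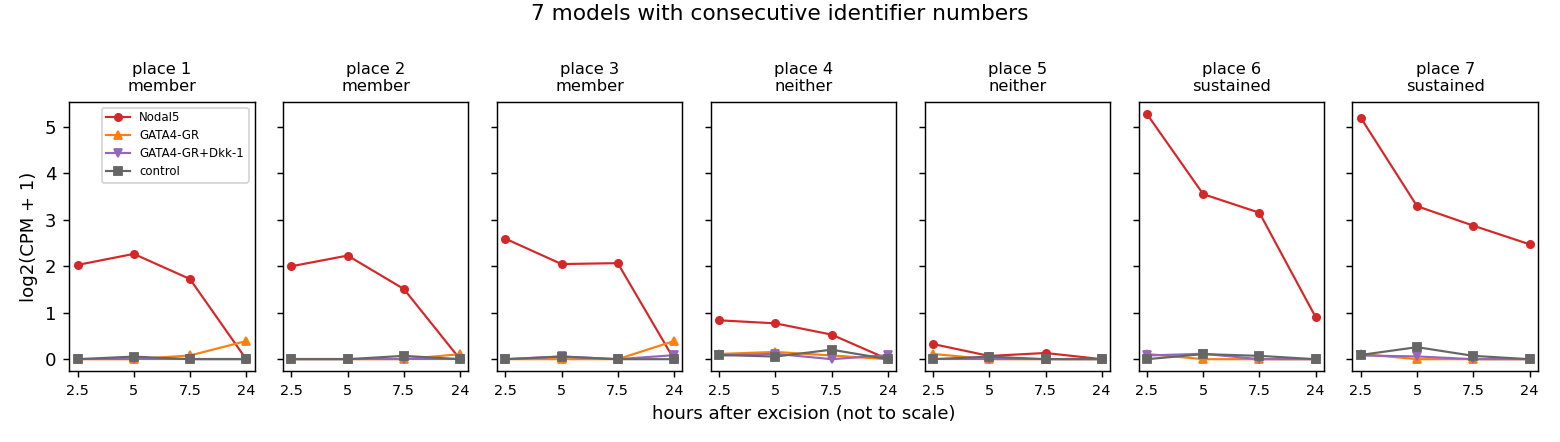
Level, as log2(CPM + 1), against hours after excision for 7 models with consecutive identifiers, with Nodal5, GATA4-GR, GATA4-GR+Dkk-1 and control as lines and 1 library per point. Nodal5 is above the other treatments at the early hours in every panel, with places 1 to 3 at 0 in Nodal5 at 24 h and places 6 and 7 still at 10 and 52 counts. At place 5 this rests on 1.18 Nodal5 counts at 5 h and 1.12 at 7.5 h.

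A further pair of members stood next to sustained models. Rank 7 gave 66, 64, 17 and 4 counts in Nodal5 explants at the 4 hours, and none in control explants. Its neighbour gave 103, 127, 48 and 9 counts in Nodal5 explants, against 0, 1, 2 and 0 in control. The Nodal5 CPM of both fell at each successive hour, and the 24 h differences of 0.43 for the member and 0.84 for its neighbour rest on 4 and 9 Nodal5 counts. In the other pair the courses differed, as rank 8 gave 35, 42, 36 and 1 counts in Nodal5 explants and its neighbour gave 129, 37, 19 and 30. Of the 80 models that met the early criteria, whatever their 24 h value, 11 had an identifier next to that of another. No such share was computed for other sets of models, so whether this count is unusual is not known here.

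The members varied in when the Nodal5 difference was largest. It was largest in the 2.5 h libraries in 6 members, in those of 5 h in 6 and in those of 7.5 h in 7. The median Nodal5 difference of the members was 1.32, 1.51 and 1.42 over the early hours in order and 0.04 at the last, with ranges of 0.94 to 4.10, 0.84 to 2.41, 0.84 to 2.27 and -0.72 to 0.49. Over all 30841 models the medians were 0.04, 0.04, -0.01 and 0 at these hours. The sustained models had medians of 1.94, 2.00, 2.24 and 1.89. The early differences of the members were thus also smaller on this scale, on which the pseudocount bounds the difference of a model at a few CPM. Within Nodal5 explants, the ratio of 7.5 h to 2.5 h had an interval below 1 in 4 members (ranks 1, 2, 7 and 10) and above 1 in 3 (ranks 3, 5 and 14). The Nodal5 library with the highest CPM was that of 2.5 h in 6 members, that of 5 h in 7 and that of 7.5 h in 6, and in 0 members was it that of 24 h.

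**Figure D3:**
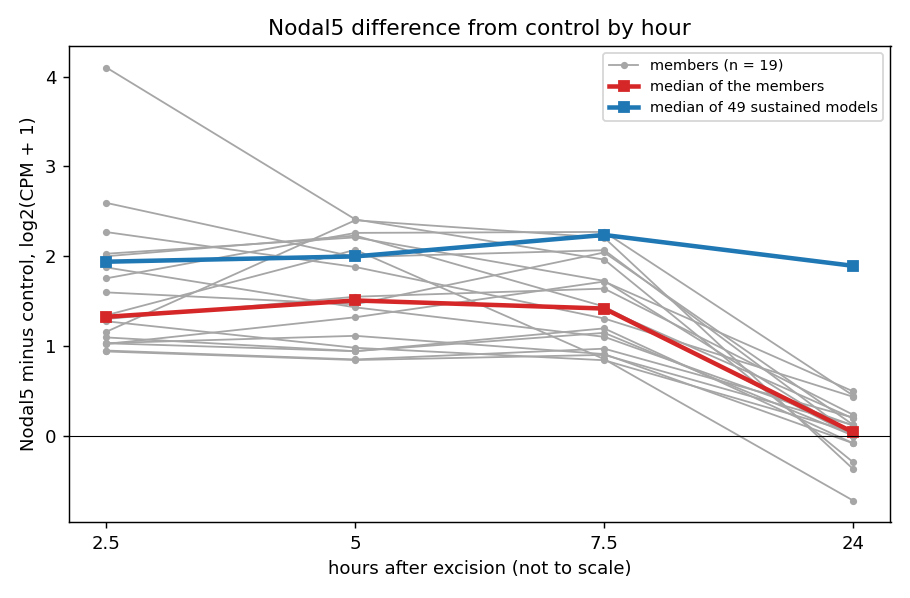
Nodal5 minus control in log2(CPM + 1) at each hour, with 1 grey line per member, the median of the 19 members in red and the median of 49 sustained models in blue. The members' median is 1.32 to 1.51 at the early hours and 0.04 at 24 h, whereas that of the sustained models is 1.89 at 24 h, as the rule that separates them requires.

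The thresholds cut through a continuous range. The lowest early Nodal5 difference was 0.84 in the last model inside the rule and 0.80, just under 0.8, in the first outside. The 24 h difference was 0.49 just inside and 0.52 just outside, and the largest early GATA4 difference in size was 0.48 just inside and 0.56 just outside. Between the members and the 49 sustained models lay 12 models with a 24 h difference of 0.5 to 0.8.

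A difference can be lost because the Nodal5 level falls or because the control level rises, and the level of each treatment was compared between 24 h and 7.5 h. The Nodal5 level fell by at least 1 on the log2(CPM + 1) scale in 9 of the 19 members, against 15.8% of all models. The control level was higher at 24 h by at least 1 in 1 member (rank 5), against 20% of all models. No member combined both changes, and 9 showed neither. The Nodal5 level was higher at 24 h by at least 1 in 0 members (16.2% of all models), and the control level was lower by at least 1 in 0 (17.2%). Such a fall needs a level of at least 1 at 7.5 h, which 18 members had in Nodal5 and only 2 in control, so the last count was nearly fixed. Since the rule uses these 4 libraries, the counts and the intervals that follow are a description.

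The size of these changes is limited by the low levels, because the pseudocount bounds how far a member at a few CPM can fall. The median Nodal5 change of the members was -0.94, with a range of -2.07 to -0.49. Every member lay below 0, which the rule requires wherever the control level did not rise. The median change was -0.12 for the sustained models, of which 8 of 49 fell by at least 1, and 0.01 for all models. In the 12 models between the members and the sustained models, the median was -1.14, and 6 of the 12 fell by at least 1. A late fall of this size was thus not particular to the members. The Nodal5 ratio of 24 h to 7.5 h had an interval below 1 in 17 members, all except ranks 11 and 19. The median control change was 0.04 for the members, with a range of -0.23 to 2.09, and 0 for all models. The control ratio had an interval above 1 in 5 members (ranks 1, 5, 11, 12 and 13) and below 1 in 0. Rank 11 gave 10 counts at 24 h against 22 at 7.5 h in Nodal5 explants, and 25 counts at 24 h against 12 at 7.5 h in control explants.

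**Figure D4:**
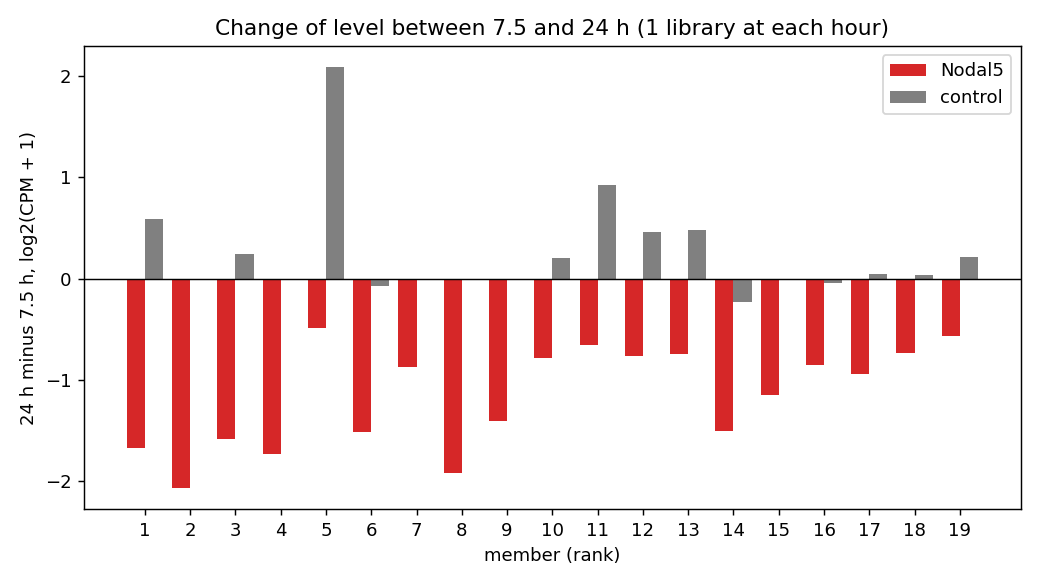
Level at 24 h minus level at 7.5 h in log2(CPM + 1) for each member, with Nodal5 in red to the left of control in grey. All Nodal5 bars lie below 0, from -2.07 to -0.49, and the control bar exceeds 1 only in rank 5. The rule requires a Nodal5 fall wherever the control level did not rise.

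The GATA4 levels at 24 h were not part of the rule, although the control library at 24 h that they are set against was. A member was counted where both GATA4 treatments differed from control by at least 1, a fold criterion without a replicate check. In 2 of the 19 members both GATA4 treatments were higher than control by at least 1, against 8% of all models. Both were lower in 0 members, against 9.66% of all models, but only 3 members (ranks 5, 11 and 13) had a control level of at least 1 at 24 h and could have been counted. Among the 49 sustained models, 6 were higher and 0 lower. The median difference of the members was 0.11 in GATA4-GR and 0 in GATA4-GR+Dkk-1, and over all models it was -0.01 and -0.02.

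The member of rank 18 had the largest GATA4 level at 24 h relative to control. It gave 120 counts in GATA4-GR and 135 in GATA4-GR+Dkk-1 explants at 24 h, against 3 in control explants, whereas Nodal5 explants had 5. Before 24 h the GATA4 libraries held 4 to 7 counts each. The ratio to control was 37.6 (12.6 to 185) in GATA4-GR and 33.6 (11.2 to 165) in GATA4-GR+Dkk-1, and the differences were 3.04 and 2.89. At the early hours it had given 27, 31 and 16 counts in Nodal5 explants, against 5, 7 and 4 in control explants, so its highest CPM lay in Nodal5 at these hours and in both GATA4 treatments at 24 h.

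Rank 10 showed a similar course with fewer reads. Nodal5 explants gave 71, 48, 17 and 5 counts at the 4 hours, against 6, 3, 3 and 4 in control explants. GATA4-GR explants gave 1, 2, 2 and 23 counts and GATA4-GR+Dkk-1 explants 0, 3, 1 and 43. The 24 h ratios to control were 5.41 (1.85 to 21.5) and 8.02 (2.92 to 30.8), and the differences 1.06 and 1.45. Rank 13, described above, came next with differences of 0.89 and 0.95, followed by rank 3 with 0.63 and 0.67, which rest on 12 and 16 counts against 3.

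**Figure D5:**
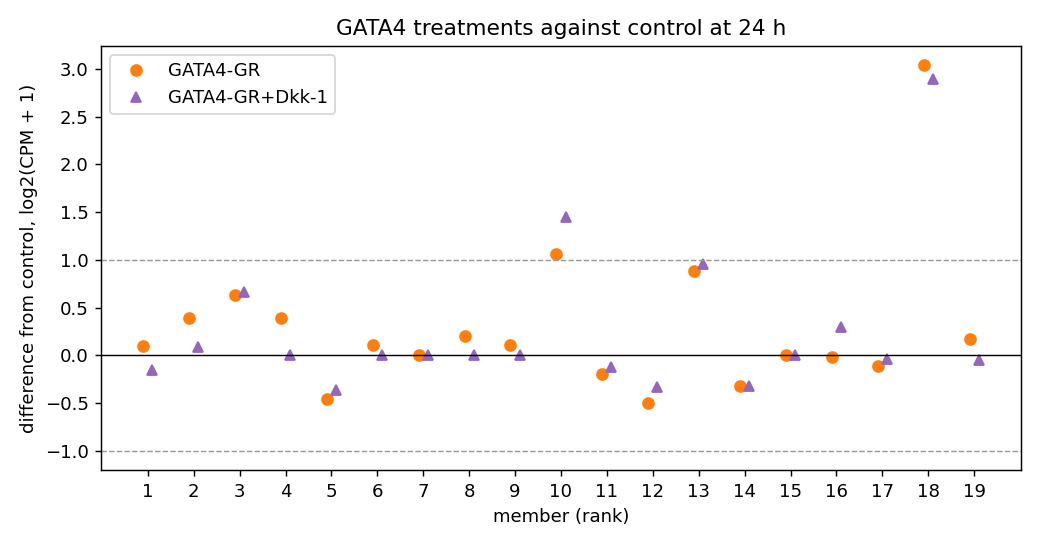
Difference from control at 24 h in log2(CPM + 1) for each member, with GATA4-GR as circles and GATA4-GR+Dkk-1 as triangles, 1 library each, and dashed lines at 1 and -1. Ranks 10 and 18 lie above 1 in both treatments, rank 13 lies just under at 0.89 and 0.95, and no member lies under -1.

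The change of the members over time in explants without added Nodal5 was tested in the 8 GATA4 libraries, with treatment as a block and both treatments standing in as replicates of the hour. edgeR's quasi-likelihood test used Benjamini-Hochberg adjustment over 30841 models and a threshold of 0.1, and had 3 residual degrees of freedom. Its error is how the difference between both GATA4 treatments varied between the hours. At 24 h against 7.5 h, 9 of the 19 members were higher, against 35.4% of all models, and 2 were lower, against 34.1%. The other 8 did not pass. Ranks 2, 6, 7, 15 and 19 had 0 counts in both GATA4 libraries at 7.5 h and could not have been called lower. The number of lower members was thus limited in advance. Members had entered the test through totals that their Nodal5 counts supplied. With edgeR's filterByExpr on the tested libraries 9 members remained in the test, of which 7 were higher and 1 lower. With the control libraries added to the fit, 8 members were higher and 1 lower, and with all 4 treatments in the fit, 5 members were higher and 6 lower. The DESeq2 Wald test called 6 members higher and 0 lower. Among all models called, 51% were higher with filterByExpr and 52.6% with the control libraries added. That share was 53.1% with all 4 treatments and 51.1% with DESeq2, against 50.9% in the main test. These are shares of the models called, not of those tested. Of the 30841 models, 10889 were higher and 9816 lower with the control libraries added. The counts were 10937 and 9666 with all 4 treatments, and 9528 and 9100 with DESeq2. The number of models tested with filterByExpr is not given here, so its member counts have no such background. The balance of directions among the members changed when the Nodal5 libraries were included. The rule favours such a shift, because it chose members high in Nodal5 at 7.5 h and close to control at 24 h. The rule had used the Nodal5 and control libraries of all hours and the GATA4 libraries of the early hours. The GATA4 libraries at 7.5 h, from which the change was measured, thus took part in choosing the members. Among the libraries of the main test, only those of 24 h did not.

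The rise was largest relative to its error in rank 18, with a log2 fold change of 4.53 (adjusted p = 2.64e-06, edgeR). Xelaev16044327m.g (rank 5) was higher at 24 h by 1.58 (adjusted p = 1.52e-05, edgeR) and Xelaev16061518m.g (rank 13) by 1.17 (adjusted p = 5.82e-05, edgeR). Rank 10 was higher by 4.44 (adjusted p = 0.000253, edgeR). Each of these 4 was higher at 24 h in both treatments. Ranks 1, 2, 3, 11 and 19 also passed, and ranks 2 and 19 did so with at most 4 counts in a library. The unadjusted p of these 2 was 0.0643 and 0.0534 (edgeR), and 9 members had an unadjusted p under 0.05. In GATA4-GR+Dkk-1 explants rank 1 gave 8 counts at 24 h against 4 at 7.5 h, after 11 and 12 at the hours before. That ratio of 24 h to 7.5 h had an interval of 0.485 to 8.21, which includes 1. The 2 members that fell, ranks 14 and 17, were low in counts throughout. Rank 14 gave 0 counts in both treatments at 24 h, against 6 in GATA4-GR and 8 in GATA4-GR+Dkk-1 at 7.5 h. Rank 17 gave 2 and 4 counts at 24 h, against 11 and 10 at 7.5 h. The median change on the log2(CPM + 1) scale was 0.31 in GATA4-GR and 0.07 in GATA4-GR+Dkk-1 explants, and over all models it was -0.01 and 0.05.

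At 7.5 h against 2.5 h no member passed in either direction, whereas 14.3% of all models were higher and 17.1% lower. The rule had used the GATA4 libraries of both hours, as differences from control within the hour. Members had entered this test too through totals that their Nodal5 counts supplied. With filterByExpr on the tested libraries 9 members remained, of which 0 were called. The absence of calls among the members therefore cannot be read against the shares of all models. One member had an unadjusted p under 0.05 in the edgeR test, and the DESeq2 Wald test called 0 members, with no adjusted p given for 13. In 9 of the 19 members the 8 GATA4 libraries held under 20 counts together. What size of change between these early hours could be detected in such members was not examined. A missing call in them does not show a constant level.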

How the data were processed

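RNA-seq of 16 animal cap libraries was used. Read pairs were mapped by the authors with Bowtie against version 7.2 of the JGI gene models. The authors deposited the expected counts that RSEM estimated for 54142 models, without normalization (tool versions not given in the sources used here). Of the deposited values 27.4% were not whole (tolerance 0.01), and 14 members had such values. Reads shared by similar models are divided by estimation, so counts of near-identical copies are uncertain. Samples were grouped by the labelled condition and time.

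CPM was computed with TMM factors from edgeR 4.0.16 in R 4.3.3 over the models with a total of at least 50. The members and the lists were chosen with earlier results of these data known. The GATA4 libraries were tested on rounded expected counts by the quasi-likelihood test of edgeR, with hour and treatment as terms and a threshold of 0.1 as in the study's methods, and with DESeq2 1.42.0 as an alternative. Nothing says that libraries of different hours or treatments came from separate clutches, and p-values measure only the spread between these libraries. On simulated counts for the 24 h against 7.5 h comparison, 200 of 30584 models were changed by a log2 change of 2. The simulated coefficient of variation was 0.12, 94% of changed models were recovered and 8.29% of calls were false. The changed models were drawn only from those above a minimum mean count. In the data 21438 of 30841 models were called, against 205 calls in the simulation. These rates therefore do not describe members with few counts. Ratios of counts carry 95% exact conditional (Clopper-Pearson) intervals, and a count of 0 allows up to 3 counts.

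Identifiers were to be printed for the 2 members with the highest mean early difference among those with at least 10 CPM in the 3 early Nodal5 libraries, and for the 2 others whose Nodal5 level fell most between 7.5 and 24 h among those with at least 10 CPM at 7.5 h. The second part found none, and the 2 identifiers in its place were chosen after their values were seen. Lists of Nodal signalling, mesendoderm, organizer, ectoderm, ciliated cell, heart and muscle genes needed gene names and were not used. Alternatives were the scaling, the filter, the pseudocount, the thresholds, the hours and libraries, and the tool.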

Additional observations from a re-analysis of the deposited data

Results flagged for a closer look

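In 5 members the Nodal5 difference from control was above 0 at all early hours and below 0 at 24 h, and the difference between the hours was not tested, since there is 1 library per treatment and hour. The 24 h difference on the log2(CPM + 1) scale was -0.30 in rank 1 (mean early difference 2.82), -0.37 in rank 5 (1.92), -0.72 in rank 11 (1.42), -0.0856 in rank 14 (1.08) and -0.0856 in rank 17 (1.02). The ratio of Nodal5 to control at 24 h had a counting interval below 1 in ranks 5 and 11 and included 1 in the other 3, which had 4, 2 and 2 counts in Nodal5 explants against 8, 3 and 3 in control explants.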

How the results depend on the processing

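The number of members was 19 and stayed between 16 and 28 with DESeq2 size factors, library totals, rounded counts, most row minimums, the 24 h limit at 0.3, the 5 h libraries left out of the rule and the other reference at 24 h, which was chosen after seeing the data. It was 8 with a row total of at least 200, 46 and 12 with early thresholds of 0.6 and 1, 31 with a 24 h limit of 0.8, 10 and 30 with GATA4 limits of 0.3 and 0.8, and 44 and 46 without the 2.5 h and the 7.5 h libraries. A pseudocount of 0.5 CPM gave 18 models, of which 9 were members, and 2 CPM gave 19, of which 10 were members. The members whose Nodal5 level fell numbered 15 and 5 with these pseudocounts and 18 and 1 with thresholds of 0.5 and 2. Those whose control level rose numbered 2 with a pseudocount of 0.5 CPM and 3 with a threshold of 0.5. Those higher in both GATA4 treatments numbered 1 with a pseudocount of 2 CPM, and 4 and 1 with thresholds of 0.5 and 2. Of 11 members called at 24 h against 7.5 h, the DESeq2 Wald test called 6 and a threshold of 0.05 called 7. At 7.5 h against 2.5 h, 1 member was called with the control libraries added, with all 4 treatments and without the 24 h libraries, against 0. The cause of these differences was not tested. The other 77 values were counted as close, among them the member counts between 16 and 28. They also include mean early Nodal5 differences that moved with the pseudocount. In rank 1 that difference was 2.82, against 3.41 with 0.5 CPM and 2.20 with 2 CPM. In rank 2 it was 2.22, against 3.03 and 1.51. Ranks 5 and 13 moved less, from 1.92 to 1.94 and 1.88, and from 1.35 to 1.385 and 1.29. Scaling by library totals moved the median difference of all models at 24 h to 0.11 in Nodal5, 0.16 in GATA4-GR and 0.20 in GATA4-GR+Dkk-1. No paired analysis of replicates was possible, because there is 1 library per treatment and hour. Treatment was the only block, in the test of the hours. Another 24 h reference for the GATA4 differences was not run. Most members had under 200 Nodal5 counts over the early hours. At 24 h 16 members had under 10 counts in both the Nodal5 and the control library, so their 24 h values are uncertain.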
